A study of Mus musculus with 18 samples.

Results

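The genes described are 10 transcripts of the axon cytoskeleton and of the neuronal response to injury, Nefl, Nefm, Nefh, Tubb3, Mapt, Stmn2, Gap43, Sprr1a, Rgs16 and Gadd45a. Each was taken as the median log2 signal, per array, of the probe sets annotated to that gene and to no other. The 10 genes rest on 64 probe sets, are 10 of 20352 genes on the array, and all passed the filter on dim genes, which left 16281 genes tested. Tubb3 has 1 probe set, Sprr1a 2, Nefm and Gadd45a 4 each, Nefl, Gap43 and Stmn2 5 each, Rgs16 8, Nefh 9 and Mapt 21.

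The RNA came from the caudal corpus callosum, a white matter tract, of C57BL/6 mice that all received feed with 0.2% cuprizone (CPZ), a copper-binding compound toxic to oligodendrocytes, the cells that make myelin. The groups were 12-week Trem2 knockout (KO, 6 arrays), 12-week wild type (WT, 5 arrays), 6-week KO (3 arrays) and 6-week WT (4 arrays). Trem2 encodes a receptor of microglia, the macrophages of the brain. The labels give the stage as mouse age in one place and feeding times of several lengths in another, so whether 12 and 6 weeks are ages or times on CPZ is unsettled; the labels do not say which part of Trem2 was deleted. The 18 arrays include no mice without CPZ, so no value can be set against undamaged tissue. Nothing in the labels says that arrays are separate mice, so the spread behind each p-value is that between arrays and may be technical in origin.

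Neurofilaments are the intermediate filaments that fill myelinated axons and set their calibre, and they are built from light, medium and heavy chains. Microtubules, bound by tau and remodelled by stathmins, carry transport along the axon. The messenger RNAs of these proteins are made in neuronal cell bodies, most of which lie outside white matter tracts. After an axon is cut or damaged, neurons are known to switch on growth-associated and stress genes, among them Gap43, Sprr1a and Gadd45a.

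Trem2 separated the genotypes as labelled, with a KO minus WT log2 difference of -2.09 ± 0.28 (SE) at 12 weeks (limma adjusted p = 0.00251) and -1.49 ± 0.36 at 6 weeks (adjusted p = 0.247), and no KO array reached the level of a WT array of its stage. The myelin genes Mbp, Cnp and Mog measured 8.11 to 11.58, 8.22 to 10.58 and 5.71 to 9.91 over the 18 arrays. The neuronal genes Snap25, Camk2a and Slc17a7 measured 8.80 to 11.28, 8.01 to 11.32 and 5.76 to 8.67. Probe sets differ in brightness, so these levels do not rank the cell types. A neuron score, the mean centred log2 level of 18 soma and synapse genes, ran from -0.14 to 0.34 in 12-week KO arrays, from -0.05 to 0.47 in 12-week WT arrays, from -1.45 to 0.24 in 6-week KO arrays and from -1.07 to 0.42 in 6-week WT arrays. Of the 6-week arrays 3 stood low, KO replicate 2 at -1.45, WT replicate 4 at -1.07 and WT replicate 3 at -0.44. Their scores for 11 mature oligodendrocyte genes were 1.29, 2.22 and 1.77, and the choroid plexus score of WT replicate 4 was 3.43. In bulk tissue, fewer cells of a type and less RNA per cell cannot be told apart.

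None of the 10 genes passed the test between genotypes or between stages. For KO against WT, 0 of 10 passed at 12 weeks, where 0.43% of all genes did, and 0 of 10 passed at 6 weeks, where 0.043% did (limma, adjusted p of 0.05). For 12 against 6 weeks, 0 of 10 passed in KO (0.00614% of all genes) and 0 of 10 in WT (0.0184%). The interaction of genotype and stage gave 0 of 10, and 0.0% of all genes. At an unadjusted p under 0.05 there was 1 of 10 genes in each of these 5 comparisons. The share of all genes below it was 11.1% for KO against WT at 12 weeks, 5.44% at 6 weeks, 7.49% between stages in KO, 8.48% between stages in WT and 5.19% for the interaction. Neither a count of 0 nor a count of 1 among 10 sets these genes apart from the background.

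The differences leaned one way in some comparisons without passing. At 12 weeks 9 of 10 genes averaged lower in KO, with a median log2 difference of -0.33 against 0.02 over all genes tested. At 6 weeks 6 of 10 averaged lower in KO, with a median of -0.17 against -0.00. In KO 4 of 10 averaged higher at 12 than at 6 weeks, with a median of -0.02 against 0.02, and in WT 8 of 10 did, with a median of 0.26 against 0.01. Markers of some other cells averaged higher in KO at 12 weeks. The score of 10 astrocyte genes ran from -0.10 to 0.32 in KO arrays, against -0.44 to -0.16 in WT arrays, and that of 11 microglia genes, Trem2 among them, from -0.14 to 0.56 in KO arrays, against -0.63 to -0.20 in WT arrays. The score of 8 ependyma genes ran from -0.24 to 1.5 in KO arrays, against -0.81 to 0.27 in WT arrays. The KO and WT arrays did not overlap for the first pair of lists and did for ependyma. By single genes 9 of 10 astrocyte, 9 of 11 microglia and 8 of 8 ependyma genes averaged higher in KO at 12 weeks. So did 8 of 9 choroid plexus, 8 of 11 mature oligodendrocyte and 7 of 10 endothelium and mural cell genes. Of the neuron lists, 12 of 18 soma and synapse and 7 of 12 cortical layer genes averaged lower. By contrast 8 of 12 hippocampal neuron genes averaged higher. Of oligodendrocyte precursor genes 8 of 11 averaged lower. Of the same lists at 6 weeks, 8 of 10 astrocyte, 9 of 11 microglia and 4 of 8 ependyma genes averaged higher in KO. Among endothelium and mural cell genes 7 of 10 did, but only 1 of 11 mature oligodendrocyte and 1 of 9 choroid plexus genes. Lower in KO were 13 of 18 soma and synapse, 8 of 12 cortical layer, 8 of 12 hippocampal and 8 of 11 oligodendrocyte precursor genes. The astrocyte and microglia medians were 0.49 and 1.03 at 6 weeks, against 0.46 and 1.00 at 12 weeks. The part of these cells in the lean of the 10 genes was not tested. The 2 stages share no arrays, but the comparisons that meet in a group do, so these medians are not independent of each other.

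**Figure D1:**
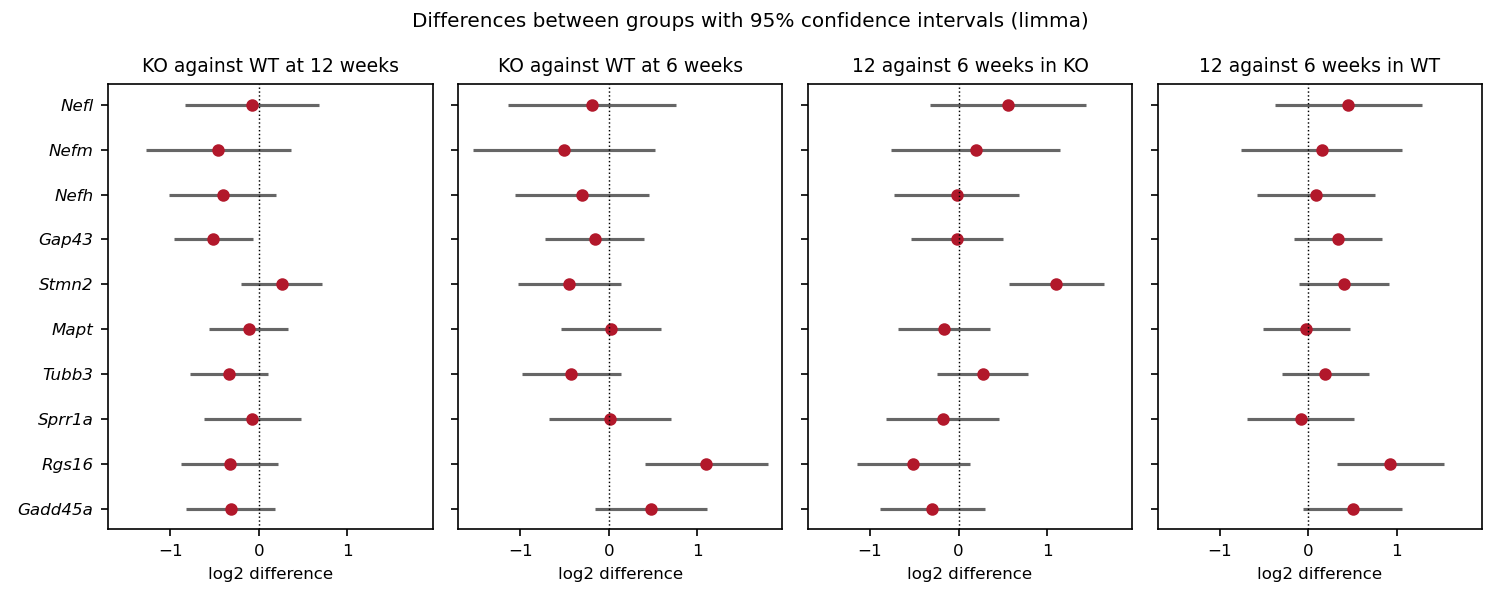
Log2 differences (points, horizontal axis) with 95% confidence intervals (lines) of the 10 genes, for KO minus WT at 12 and 6 weeks and for 12 minus 6 weeks in KO and WT. Most intervals cross 0; those of Gap43 at 12 weeks, Rgs16 at 6 weeks, Stmn2 between stages in KO and Rgs16 between stages in WT do not, and none of these passed after adjustment.

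The neurofilament chains had the highest within-group SDs of the 10 genes when pooled over the 4 groups, and their genotype means differed by less than that spread. Nefl, the light chain on which the polymer is built, measured 7.11 (lowest), 7.96 (median) and 8.41 (highest) in 12-week KO arrays, against 7.43, 7.77, 8.39, 8.15 and 8.24 in 12-week WT arrays. At 6 weeks Nefl measured 7.47, 6.57 and 8.04 in KO arrays, against 8.51, 8.43, 6.69 and 6.53 in WT arrays. The KO and WT ranges overlapped at both stages, and the 6-week WT arrays split into a high pair and a low pair. Judged by Xist and Y-linked genes, the high pair was male and the low pair female. The lowest 6-week KO array, replicate 2 at 6.57, was male. The part of sex in the split was not tested. The KO minus WT difference was -0.08 ± 0.36 at 12 weeks and -0.19 ± 0.46 at 6 weeks, with 95% intervals of -0.83 to 0.67 and -1.14 to 0.77.

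Nefm, the medium chain, measured 6.89 (lowest), 7.46 (median) and 7.98 (highest) in 12-week KO arrays, against 8.30, 8.20, 7.71, 7.41 and 7.76 in 12-week WT arrays. The 6-week values of Nefm were 7.63, 5.70 and 8.34 in KO arrays, against 8.63, 8.28, 6.80 and 7.20 in WT arrays. One 6-week KO array, replicate 2, lay far below all others, and the groups overlapped at both stages. The differences were -0.46 ± 0.39 at 12 weeks (adjusted p = 0.689) and -0.50 ± 0.49 at 6 weeks (adjusted p = 0.999). Without KO replicate 2 the 6-week difference of Nefm was 0.26, so its direction rested on that array.

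Nefh, the heavy chain whose side arms are phosphorylated in myelinated axons, measured 5.91 (lowest), 6.67 (median) and 6.76 (highest) in 12-week KO arrays, against 7.30, 6.96, 6.50, 6.62 and 7.14 in 12-week WT arrays. At 6 weeks Nefh measured 6.53, 5.70 and 7.33 in KO arrays, against 7.17, 7.51, 5.88 and 6.73 in WT arrays. At 12 weeks 3 WT arrays lay above every KO array, yet the ranges overlapped, and the difference was -0.41 ± 0.29 (adjusted p = 0.634). All 9 Nefh probe sets averaged lower in KO at 12 weeks, and the brightest one differed by -0.75. Without KO replicate 2 the 6-week differences of Nefh and Nefl were 0.11 and 0.21, against -0.30 and -0.19 with it.

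**Figure D2:**
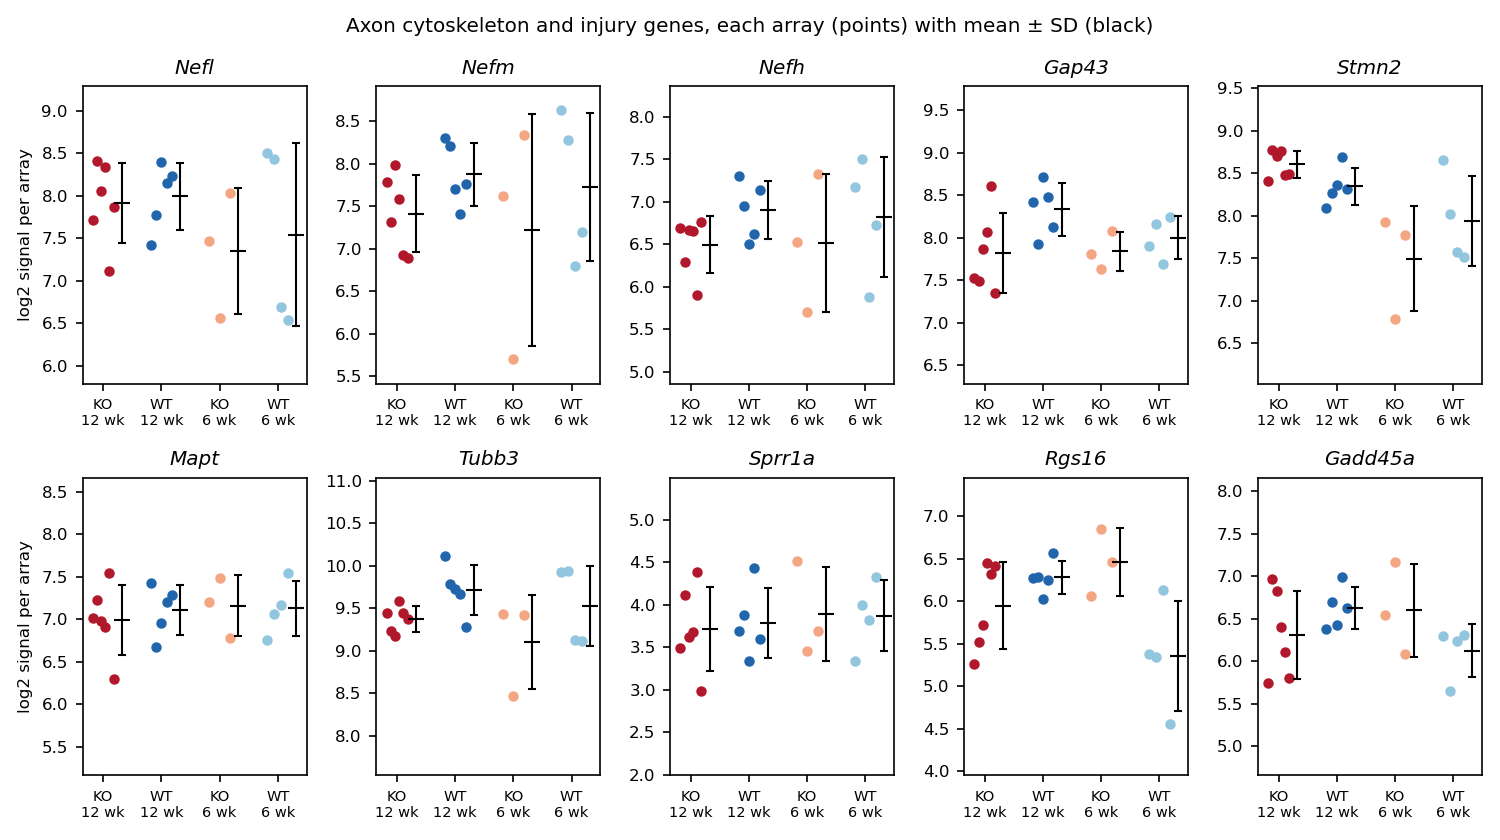
Log2 signal of each array (coloured points, vertical axis) for the 10 genes in 12-week KO, 12-week WT, 6-week KO and 6-week WT arrays, with group mean ± SD in black; every panel spans the same height in log2 units. The neurofilament genes scatter most at 6 weeks, Stmn2 is higher in all 12-week KO than in all 6-week KO arrays, and Rgs16 has its lowest group mean in 6-week WT arrays.

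The within-group SD was 0.672 for Nefl, 0.735 for Nefm and 0.522 for Nefh, at the 94.4, 96.5 and 84.0 percentiles of all genes tested, whose median SD was 0.360. The SD of the 7 other genes ranged from 0.353 for Tubb3 to 0.465 for Rgs16, at percentiles of 47.8 to 75.9. The SD of Nefm was 1.36 in 6-week KO and 0.87 in 6-week WT arrays, against 0.45 in 12-week KO and 0.37 in 12-week WT arrays, so its SD was higher at 6 weeks. In 12-week KO arrays the order was another one, with SDs of 0.475 for Nefl, 0.451 for Nefm and 0.331 for Nefh, against 0.515 for Gadd45a, 0.511 for Rgs16 and 0.493 for Sprr1a.

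**Figure D3:**
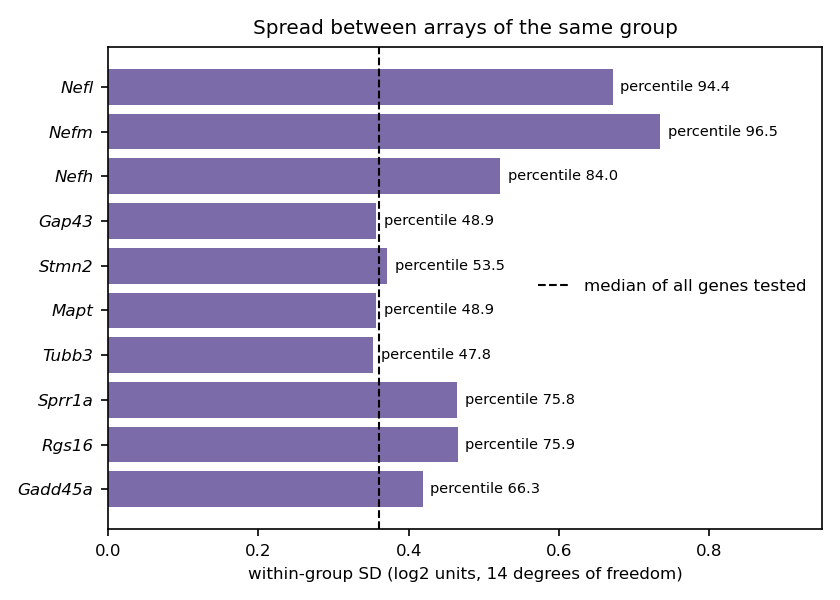
Within-group SD in log2 units (bars, horizontal axis, pooled over the 4 groups) of each gene with its percentile among all genes tested, and the median of all genes (dashed line). The 3 neurofilament genes stand above the other 7, led by Nefm at 0.735.

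Neurofilament levels followed the neuron score across arrays. Over 18 arrays Nefl had a Pearson r of 0.82 (permutation p = 3e-05, 0.0003 adjusted over the 10 genes) and a Spearman rho of 0.75 (p = 0.00058, adjusted 0.0031) with the score. Nefm had an r of 0.79 (permutation p = 0.00027, adjusted 0.0009) and a rho of 0.70 (p = 0.00159, adjusted 0.0053), and Nefh an r of 0.59 (permutation p = 0.00927, adjusted 0.0185) and a rho of 0.44 (p = 0.069, adjusted 0.138). Leaving out the 2 arrays farthest from the median score, KO replicate 2 and WT replicate 4 of 6 weeks, gave 0.69, 0.70 and 0.63 for the light, medium and heavy chains. Within the 11 arrays of 12 weeks the r values were 0.38, 0.53 and 0.33, and within the 7 of 6 weeks they were 0.90, 0.91 and 0.76. The correlations were highest at 6 weeks, where 3 arrays stood low, and lower among the 12-week arrays. With the neuron score added to the model 0 of 10 genes passed, and the KO minus WT difference of Nefm at 12 weeks was -0.28, against -0.46 without the score.

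**Figure D4:**
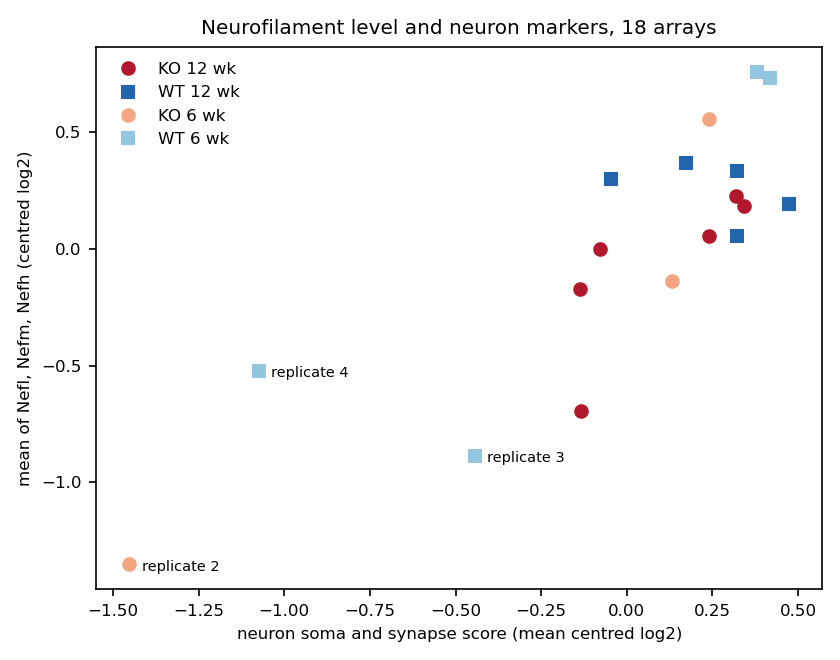
Mean centred log2 level of Nefl, Nefm and Nefh (vertical axis) against the neuron score (horizontal axis, centred log2) in 18 arrays, with 12-week KO, 12-week WT, 6-week KO and 6-week WT arrays marked. The 3 labelled 6-week arrays, KO replicate 2 and WT replicates 3 and 4, are low on both axes.

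The medium and heavy chains were the most alike of all pairs among the 10 genes, with an r of 0.85 over 18 arrays. The r was 0.65 for Nefl with Nefm and 0.56 for Nefl with Nefh. It was higher than 0.65 for Nefm with Tubb3 (0.80), Nefl with Stmn2 (0.75) and Nefh with Tubb3 (0.68). Outside the 10 genes, the pattern most like the mean of the neurofilament chains was that of Atp2b2, a plasma membrane calcium pump, with an r of 0.91. Plekhg5, Nrg3, Basp1, Gabbr2, Rasgrf1, Ryr2 and Lct followed with values down to 0.88. Basp1 encodes a growth cone protein related in behaviour to GAP43, and Gabbr2 a subunit of the GABA-B receptor. These correlations are descriptions over the same 18 arrays, which share the 3 low arrays.

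Among the microtubule genes, Tubb3, the neuron-specific beta tubulin, averaged lower in KO at both stages without passing. It measured 9.17 (lowest), 9.41 (median) and 9.58 (highest) in 12-week KO arrays, against 10.11, 9.79, 9.72, 9.67 and 9.28 in 12-week WT arrays. The 6-week values of Tubb3 were 9.43, 8.46 and 9.42 in KO arrays, against 9.93, 9.93, 9.12 and 9.11 in WT arrays. At 12 weeks 4 WT arrays lay above every KO array and 1 lay within their range. The differences were -0.34 ± 0.21 at 12 weeks (limma adjusted p = 0.577) and -0.42 ± 0.27 at 6 weeks (adjusted p = 0.995). Without KO replicate 2 of 6 weeks the 6-week difference of Tubb3 was -0.10. An exact permutation test gave p = 0.0411 at 12 weeks, 0.381 after adjustment over 40 such tests. Tubb3 had an r of 0.78 with the neuron score (permutation p = 0.0001, adjusted 0.0005) and a rho of 0.75 (p = 0.00062, adjusted 0.0031), and an r of 0.57 without the 2 farthest arrays, 0.34 within 12 weeks and 0.92 within 6 weeks.

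Mapt, which encodes tau, had genotype differences near 0. It measured 6.29 (lowest), 6.996 (median) and 7.54 (highest) in 12-week KO arrays, against 7.43, 6.67, 6.96, 7.21 and 7.28 in 12-week WT arrays. The 6-week values of Mapt were 7.21, 7.49 and 6.78 in KO arrays, against 6.76, 7.06, 7.16 and 7.54 in WT arrays. All 4 groups overlapped, and the KO minus WT difference was -0.12 ± 0.21 at 12 weeks (95% interval -0.56 to 0.33) and 0.03 ± 0.27 at 6 weeks (-0.54 to 0.59). The 21 probe sets of Mapt disagreed widely, with 6-week differences of -0.52 to 1.26. Its brightest probe set, at a mean of 10.64, was lower at 12 than at 6 weeks, by -0.67 in KO (10.26 against 10.94) and by -0.60 in WT (10.52 against 11.12), while the gene median differed by -0.16 in KO and -0.02 in WT. Mature oligodendrocytes, which also express tau, averaged a score of -0.43 in 12-week KO and 0.44 in 6-week KO arrays, and -0.61 in 12-week WT and 1.08 in 6-week WT arrays; the part of those cells in the tau signal was not tested. Of the 10 genes Mapt had the most negative r with the neuron score, -0.42 (permutation p = 0.0808, adjusted 0.135), with a rho of -0.41 (p = 0.0917, adjusted 0.143) and an r of -0.02 without the 2 farthest arrays. Within the 7 arrays of 6 weeks the r of Mapt was -0.86, and within the 11 of 12 weeks it was 0.17.

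Stmn2, a stathmin of growth cones that binds tubulin, had the smallest p of the 10 genes between stages, in KO. It measured 8.41 (lowest), 8.60 (median) and 8.77 (highest) in 12-week KO arrays, against 7.93, 6.78 and 7.78 in 6-week KO arrays. Every 12-week KO array lay above every 6-week KO array, as for 3.91% of all genes in either direction, and the log2 difference was 1.11 ± 0.26 (95% interval 0.57 to 1.64), a 2.15-fold difference. It ranked 22 of 16281 genes by p and had a limma adjusted p of 0.263. The exact permutation test gave p = 0.0119, the smallest that 84 arrangements allow, and 0.212 after adjustment over 40 tests.

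All 5 probe sets of Stmn2 were higher at 12 weeks in KO, by 0.87 to 1.17. In WT it measured 8.09, 8.27, 8.36, 8.69 and 8.31 at 12 weeks, against 8.65, 8.02, 7.57 and 7.51 at 6 weeks, where the highest 6-week array overlapped the 12-week ones. The WT stage difference was 0.40 ± 0.24 (adjusted p = 0.660), and the interaction was 0.70 ± 0.35 (adjusted p = 0.920), so the stage difference was not shown to differ by genotype. Without KO replicate 2 of 6 weeks that interaction was 0.34. Without KO replicate 2 of 6 weeks the KO stage difference was 0.75 (adjusted p = 0.558). The r of Stmn2 with the neuron score was 0.75 (permutation p = 0.00121, adjusted 0.00302), but rho was 0.40 (p = 0.1, adjusted 0.143) and r was 0.29 without the 2 farthest arrays, so the relation rested on them. With the neuron score in the model the KO stage difference of Stmn2 was 0.84 (adjusted p = 0.146).

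Between genotypes, Stmn2 was the only one of the 10 genes to average higher in KO at 12 weeks, by 0.26 ± 0.22, with an exact permutation p of 0.0476 (0.381 adjusted). At 6 weeks it averaged lower in KO, by -0.44 ± 0.28, and by -0.09 without KO replicate 2. The KO and WT arrays overlapped at both stages, as was the case for all 10 genes. Over all genes 2.46% had no overlap of KO and WT arrays at 12 weeks and 5.07% at 6 weeks.

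Gap43, a membrane protein of growing axon tips, had the lowest unadjusted limma p of the 10 genes for KO against WT at 12 weeks (0.0260). It measured 7.35 (lowest), 7.70 (median) and 8.61 (highest) in 12-week KO arrays, against 8.42, 7.92, 8.72, 8.48 and 8.13 in 12-week WT arrays. At 6 weeks it measured 7.81, 7.63 and 8.08 in KO arrays, against 7.90, 8.17, 7.69 and 8.24 in WT arrays. Of the 12-week KO arrays, replicate 5 at 8.61 lay within the upper part of the WT range and replicate 4 at 8.07 within its lower part. The groups overlapped at both stages. The 12-week difference was -0.51 ± 0.21 (95% interval -0.96 to -0.07), or 1.43-fold lower in KO, with an adjusted p of 0.369 by limma. Without KO replicate 5 it was -0.67 (adjusted p = 0.187). The exact permutation p of Gap43 at 12 weeks was 0.0758 (0.429 adjusted). Those of Tubb3 and Stmn2 were smaller, at 0.0411 and 0.0476. The 6-week difference of Gap43 was -0.16 ± 0.27. Of its 5 probe sets 4 averaged lower in KO at 12 weeks, with a range of -0.59 to 0.06. With the mean of the probe sets in place of their median the 12-week difference was -0.29 (limma adjusted p = 0.468), and with the brightest probe set it was -0.38 (adjusted p = 0.660). Gap43 had an r of 0.29 with the neuron score (permutation p = 0.246, adjusted 0.325) and a rho of 0.45 (p = 0.0609, adjusted 0.138).

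**Figure D5:**
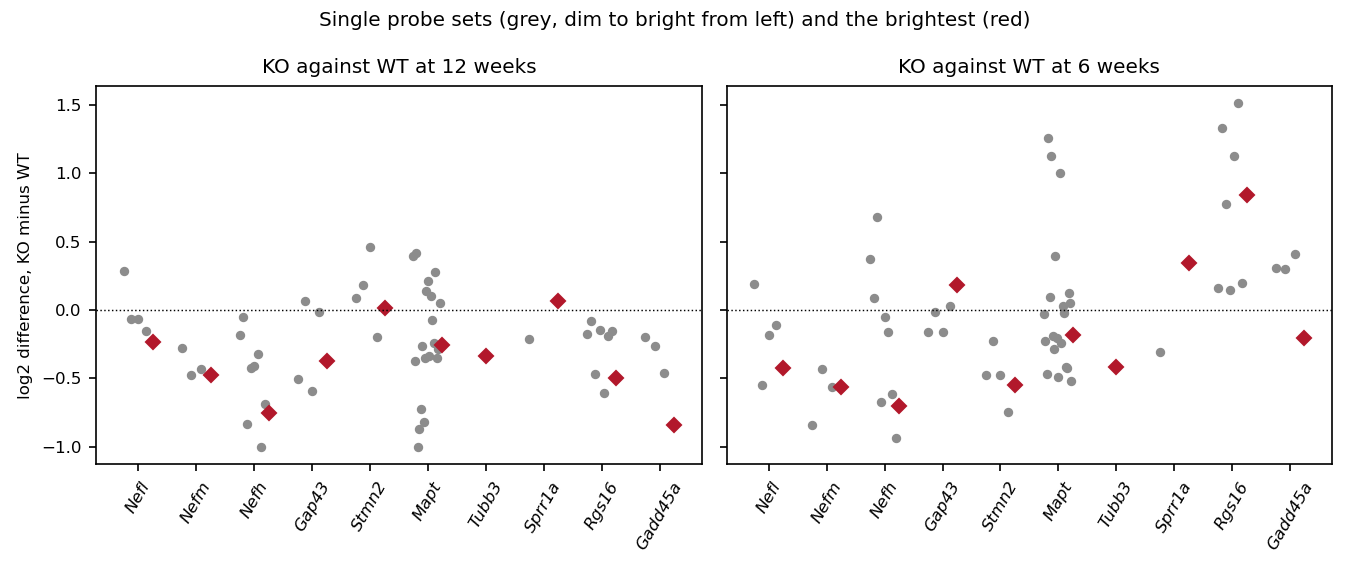
KO minus WT log2 difference (vertical axis) of every single probe set of the 10 genes at 12 weeks (left) and 6 weeks (right), ordered from dim to bright within a gene, with the brightest in red. All 8 Rgs16 probe sets are above 0 at 6 weeks and below 0 at 12 weeks, and those of Mapt lie on both sides of 0.

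Promoter sequences from RefSeq were at hand for Sprr1a, Rgs16, Gadd45a and Tubb3. Those of Sprr1a and Rgs16 are given because the first gene lay near the filter level and the second gave the largest genotype difference. Both run 5′ to 3′ along the gene's strand in build GRCm38.p6, from 250 bases before to 50 after the gene's start. Capitals mark matches on either strand. The motifs searched were TGANTCA for AP-1, which Jun and Fos dimers bind. The promoter elements searched with it were the TATA box, spelled TATAAA, and the box known for binding Sp1, here called the GC box and spelled GGGCGG. Sprr1a is at chr3:92485832-92486131 on the minus strand and Rgs16 at chr1:153740103-153740402 on the plus strand.
Sprr1a: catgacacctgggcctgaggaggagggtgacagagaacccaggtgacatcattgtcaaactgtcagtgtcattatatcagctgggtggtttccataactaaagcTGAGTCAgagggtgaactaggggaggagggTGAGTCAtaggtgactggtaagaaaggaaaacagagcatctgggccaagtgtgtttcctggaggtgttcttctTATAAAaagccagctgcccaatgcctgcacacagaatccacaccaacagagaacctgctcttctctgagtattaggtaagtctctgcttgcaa
Rgs16: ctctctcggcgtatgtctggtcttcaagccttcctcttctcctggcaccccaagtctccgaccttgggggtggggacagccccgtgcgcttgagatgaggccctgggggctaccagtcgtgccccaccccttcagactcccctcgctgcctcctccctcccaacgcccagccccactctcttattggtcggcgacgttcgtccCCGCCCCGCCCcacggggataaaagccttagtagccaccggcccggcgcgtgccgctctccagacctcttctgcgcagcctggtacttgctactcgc
The Sprr1a window holds 2 AP-1 matches and 1 TATA box, and the Rgs16 window holds 2 GC boxes that overlap by 1 letter on the reverse strand. Of 32851 mouse promoters of this length 7.81% hold the AP-1 motif, 13.6% the TATA box and 35.7% the GC box. Gadd45a has 1 GC box in its window and Tubb3 has 2. The motif TGACGTCA (CRE), found in 1.79% of promoters, is in none of the 4 windows read, those of Sprr1a, Rgs16, Gadd45a and Tubb3.

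Sprr1a, a small proline-rich protein known to appear in regenerating peripheral neurons, lay near the filter level on the arrays. It measured 2.98 (lowest), 3.65 (median) and 4.39 (highest) in 12-week KO arrays, against 3.69, 3.88, 3.33, 4.42 and 3.59 in 12-week WT arrays. At 6 weeks it measured 4.51, 3.46 and 3.69 in KO arrays, against 3.33, 4.00, 3.82 and 4.33 in WT arrays. All 4 groups overlapped, and its mean of 3.79 was close to the filter level of 3.41. The KO minus WT difference was -0.07 ± 0.26 at 12 weeks (95% interval -0.62 to 0.47) and 0.02 ± 0.33 at 6 weeks (-0.67 to 0.71). Array background is not in the table used here, so whether Sprr1a lay above it is not stated. Of 12 other small proline-rich genes measured, 3 passed the filter, and 0 of 3 passed the test in any comparison.

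Rgs16, which encodes a protein that speeds the shut-off of G-protein signals, gave the largest genotype difference of the 10 genes, at 6 weeks. It measured 6.06, 6.86 and 6.46 in 6-week KO arrays, against 5.38, 5.34, 6.14 and 4.56 in 6-week WT arrays. One WT array, replicate 3 at 6.14, lay above the lowest KO array, and the other 3 WT arrays lay below all KO arrays. The difference was 1.10 ± 0.33 (95% interval 0.41 to 1.80), or 2.15-fold, with an adjusted p of 0.572 by limma. The exact permutation test gave p = 0.0857 among 35 arrangements, of which the smallest possible p is 0.0286.

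At 12 weeks the difference of Rgs16 had the other sign, and the arrays fell in blocks. It measured 5.27 (lowest), 6.02 (median) and 6.46 (highest) in 12-week KO arrays, against 6.27, 6.29, 6.03, 6.25 and 6.57 in 12-week WT arrays. The KO arrays formed a low set, replicates 1 to 3 at 5.27, 5.53 and 5.72, and a high set, replicates 4 to 6 at 6.46, 6.32 and 6.41, and the high set overlapped the WT arrays. The difference was -0.33 ± 0.26 (adjusted p = 0.669). The low set came first in the order of submission and was male, the high set came second and was female, judged by Xist and Y-linked genes, and the WT arrays ran the other way, female in the first part and male in the second. Within each part the genotypes therefore differ in sex too, and the 2 cannot be told apart there. Within the first part of the submission KO minus WT was -0.78 (3 KO and 2 WT arrays) and within the second part it was 0.11 (3 and 3 arrays). With sex in the model it was -0.36 (adjusted p = 0.635).

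The interaction of genotype and stage was -1.44 ± 0.42 for Rgs16 (95% interval -2.32 to -0.55, limma adjusted p = 0.780). Its stage difference was -0.51 ± 0.31 in KO (limma adjusted p = 0.727) and 0.93 ± 0.29 in WT (adjusted p = 0.352; exact permutation p = 0.0159, adjusted 0.212). The 8 probe sets shared a sign between genotypes, with 8 of 8 higher in KO at 6 weeks, by 0.14 to 1.51, and 8 of 8 lower at 12 weeks, by -0.61 to -0.08. Leaving out KO replicate 2 and WT replicate 4 of 6 weeks together gave a 6-week difference of 0.64 with an adjusted p of 1. With the neuron score Rgs16 had an r of -0.01 (permutation p = 0.967, adjusted 0.967) and a rho of -0.22 (p = 0.369, adjusted 0.461). The genes most like Rgs16 over 18 arrays were Hgf, Cyp2j9, Fam107a, Triap1 and Tm6sf1, with r of 0.86 to 0.78, and Hgf is a growth factor that acts through the receptor MET.

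Gadd45a, a p53 target that acts in growth arrest and DNA repair, measured 5.74 (lowest), 6.26 (median) and 6.97 (highest) in 12-week KO arrays, against 6.38, 6.70, 6.42, 6.99 and 6.63 in 12-week WT arrays. At 6 weeks it measured 6.55, 7.17 and 6.08 in KO arrays, against 6.29, 5.66, 6.24 and 6.32 in WT arrays. The genotypes overlapped at both stages, while every 12-week WT array lay above every 6-week WT array, as for 2.49% of all genes in either direction. The KO minus WT difference was -0.32 ± 0.24 at 12 weeks (adjusted p = 0.655) and 0.48 ± 0.30 at 6 weeks (adjusted p = 0.997), or 0.19 at 6 weeks without KO replicate 2.

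The WT stage difference of Gadd45a was 0.50 ± 0.27 (limma p = 0.0759, adjusted p = 0.627; exact permutation p = 0.0159, adjusted 0.212). Its interaction was -0.79 ± 0.39 (adjusted p = 0.920). With its brightest probe set standing for the gene, the WT stage difference was 0.11 (limma adjusted p = 0.948). The brightest of its 4 probe sets, at a mean of 7.59, differed from the gene value: KO minus WT was -0.84 at 12 weeks and -0.21 at 6 weeks, against -0.32 and 0.48 for the gene. At 6 weeks the gene difference of 0.48 also exceeded that of each single probe set, the highest of which was 0.41, because a median is taken on each array. In the first and second parts of the submission KO minus WT at 12 weeks was -0.03 and -0.58. The genes most like Gadd45a were Crhbp, Fam174c, Tmprss6, Lrfn3 and Sox21, with r of 0.79 to 0.73, and those most like Sprr1a were Nudt18, Hes5, Efnb3, Clps and Btnl4, with r of 0.78 to 0.72. Like those named for Rgs16 and the neurofilament chains, these genes were picked from 16281 for their r over 18 arrays. Picking raises such values, and no relation between these genes was tested.

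Within the parts of the submission at 12 weeks, 7 of 10 genes kept the sign of the KO minus WT difference and 6 were lower in KO in both. The first part sets male KO against female WT arrays and the second female KO against male WT arrays, so in neither can genotype and sex be told apart. Tubb3 differed by -0.67 in the first part and -0.09 in the second, Gap43 by -0.54 and -0.43, Nefm by -0.56 and -0.49, and Nefh by -0.57 and -0.31. Nefl differed by 0.46 in the first part and by -0.49 in the second, so its 12-week mean near 0 joins opposite values. The labels name no such parts. They were inferred from the order of samples and the replicate numbers, and may not mark a technical batch. No such parts were drawn for the 6-week arrays. Those held 2 male and 1 female KO arrays, and 2 male and 2 female WT arrays.

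The neighbours of these genes in their pathways did not pass either. Of 30 other axonal cytoskeleton genes 0 passed in any comparison, in either direction, with a median KO minus WT difference of -0.08 at 12 weeks and -0.09 at 6 weeks. The smallest p in the genotype comparisons was that of Sncg at 12 weeks, an axonal synuclein, at 0.69 ± 0.24 (limma adjusted p = 0.261). Between stages it was that of Kif5c in WT, a kinesin motor of axonal transport, at 0.78 ± 0.20 (adjusted p = 0.273). Stmn3, a stathmin like Stmn2, differed by 1.13 ± 0.35 between stages in KO (adjusted p = 0.456).

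Of 21 other injury and regeneration genes tested, of 25 listed, 0 passed in any comparison. Jun, the AP-1 subunit known for its rise in injured neurons, differed by 0.95 ± 0.23 between KO and WT at 12 weeks (limma adjusted p = 0.0734) and by 0.60 ± 0.29 at 6 weeks (adjusted p = 0.919). Between 12 and 6 weeks Jun differed by -0.84 ± 0.27 in KO (limma adjusted p = 0.490) and by -1.18 ± 0.26 in WT (adjusted p = 0.163). Cdkn1a, a cell cycle inhibitor and p53 target, differed by -1.26 ± 0.37 between genotypes at 12 weeks (adjusted p = 0.173). Vip, a neuropeptide of cortical interneurons and injured sensory neurons, differed by 1.18 ± 0.22 between stages in WT (adjusted p = 0.0654) and by 1.01 ± 0.25 between genotypes at 6 weeks (adjusted p = 0.261).

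Of 14 GADD45 and stress genes 0 passed, with Sesn2, a stress sensor and p53 target, at -0.84 ± 0.27 between genotypes at 12 weeks (limma adjusted p = 0.235) and Chac1, a glutathione-degrading stress gene, at -0.87 ± 0.23 between stages in KO (adjusted p = 0.346). Of 6 other RGS genes of the same subfamily as Rgs16 tested, of 9 listed, 0 passed. For KO against WT at 12 weeks, Rgs2 differed by 0.54 ± 0.23 (adjusted p = 0.397) and Rgs4 by -0.50 ± 0.22 (adjusted p = 0.398). Of 18 neuron soma and synapse genes 0 passed in any comparison, with a median stage difference of 0.56 in KO and 0.43 in WT, next to -0.02 and 0.26 for the 10 genes described. Of 11 microglia genes tested, 3 passed as higher in KO at 12 weeks, and 1 passed as higher in KO at 6 weeks. The 1 that passed as lower at 12 weeks was Trem2, the gene knocked out. Over all genes 0.43% passed between genotypes at 12 weeks and 0.043% at 6 weeks.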

How the data were processed

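One-colour arrays of 18 samples were analysed. The authors' deposited log2 probe-set values were used as given (241576 probe sets, 0.732 to 13.674, array medians 5.26 to 5.41); the labels do not say how background, normalization and summarising were done. Probe sets were named from the platform annotation (212097 with 1 symbol, 4475 with several, 25004 with none), and 2742 symbols were updated through RefSeq. The 20% of genes with the lowest mean (log2 of 3.41 or less) were left out. One limma 3.58.1 model in R 4.3.3 held 4 group means, with 14 residual and 5.61 prior degrees of freedom, two-sided, Benjamini-Hochberg over 16281 genes, threshold 0.05. Permutation tests of single genes were exact and two-sided, adjusted over 40 tests, and correlations used 100000 resamples. The number of arrays limits precision. The members and lists were chosen with earlier results of these data known. Named genes are the 10 members, Trem2, up to 4 genes of smallest p per list and the genes of highest r, with marker genes given as levels. Levels are compared between genes only by the filter on dim genes. Alternatives covered the filter, normalization, probe-set summary, spread estimate, array weights, blocks, covariates and leaving out arrays. Sex was taken from Xist and Y-chromosome transcripts. Python 3.11.15, numpy 2.4.6, pandas 2.3.3, scipy 1.17.1 and matplotlib 3.10.9 were used.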

Additional observations from a re-analysis of the deposited data

Results flagged for a closer look

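Of 30 sets of values in groups of 4 to 6 arrays, 1 held an array far from the others, where chance gives about 5%. Gadd45a measured 5.66 in 6-week WT replicate 2, while the other 3 arrays of that group lay between 6.24 and 6.32. The gap to the nearest array was 0.881 of the group's whole range, above Dixon's critical value of 0.829. Without that array the 12 minus 6 weeks difference of Gadd45a in WT was 0.34, against 0.50 with it.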

How the results depend on the processing

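All 159 counts of members passing, under 32 alternatives, were 0, with an adjusted p of 0.05 or, in 1 alternative, 0.1. The interaction was not run with only the groups compared, since it needs all 4. The lowest adjusted p of a member in any alternative was 0.146, for Stmn2 between stages in KO with the neuron score as a covariate. Of 1580 member differences under alternatives 92 took the other sign, and 23 of 50 member differences never did. The largest difference that changed sign was Nefm for KO against WT at 6 weeks, which ran from -1.06 to 0.26 when single arrays were left out. The Rgs16 difference at 6 weeks ran from 0.84 to 1.37, and its interaction from -1.70 to -1.17. Gap43 at 12 weeks ran from -0.67 to -0.42 (-0.29 with the mean of its probe sets), Stmn2 between stages in KO from 0.75 to 1.32 and Gadd45a at 6 weeks from 0.19 to 0.73. The brightest probe set gave Gadd45a -0.84 at 12 weeks, against -0.32, and Stmn2 0.02 at 12 weeks, against 0.26. Sprr1a was too dim to be tested under the stricter filter and with the brightest probe set standing for each gene.

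Over 22 pairs of arrays of equal replicate number the correlation of deviations ran from -0.36 to 0.24. The 3 values over 0.1 were all between arrays numbered 1. Pairs of unequal number were not measured, so these values cannot show whether replicate numbers pair the arrays. With a replicate block 0 members passed, and the Rgs16 difference at 6 weeks was 1.10 (limma adjusted p = 0.695). Sizes near the 3.41 filter level are uncertain, and groups of 3 to 6 arrays leave wide intervals.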
